A study of Mus musculus with 107 samples.

Results

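Inhibitory interneurons of different brain regions were compared on TRAP arrays: the cells labelled Cort+ neurons of the cortex, and the stellate and basket neurons of the cerebellum. The arrays were chosen by their labels, 3 for each population, so that 6 of the 107 arrays of the series carried the comparison. TRAP, translating ribosome affinity purification, pulls tagged ribosomes out of a tissue lysate, so that the RNA on each array is ribosome-bound RNA of the cells that express the tag. All groups came from transgenic mice. In the Cort+ group the tag was carried by mouse line GM130, a BAC (bacterial artificial chromosome) transgenic line driven by Cort, and in the stellate and basket group by line JP48, driven by Lypd6. The reference was unbound RNA, the RNA left in the lysate after purification, on 9 arrays of cortex and 7 of cerebellum. Those came from other lines: 9 lines in cortex, among them Aldh1l1, Cck, Cmtm5, Glt25d2, Ntsr1, Olig2 and Pnoc lines, and in cerebellum the Pcp2, Septin4 and Cmtm5 lines. Neither population therefore had unbound RNA from its own animals. Each population was 1 transgenic line, and the age, sex and number of animals behind an array were not given in the sources used here. Each population was collected 3 times independently, according to the series' design text. The p-values and standard errors (SE) rest on the spread between arrays within groups, estimated jointly over all 30 groups of the series, and measure no other spread. For a given gene this joint spread can be smaller than that of the arrays compared.

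Cortical interneurons that make cortistatin or somatostatin arise in the ventral forebrain under Lhx6, a LIM-homeodomain transcription factor, and many of them contact the dendrites of pyramidal cells. Stellate and basket cells arise from the cerebellar ventricular zone, lie in the molecular layer, receive parallel-fibre input from granule cells and inhibit Purkinje cells. Both use GABA, made from glutamate by the decarboxylases Gad1 and Gad2 and loaded into vesicles by Slc32a1. The comparison asks which genes these inhibitory cells share and which separate them.

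Values are log2 intensities of Affymetrix probe sets, 1 probe set per gene, after each of the 30 groups of arrays had been shifted to the same mean of the biotinylated control probe sets. A level of 6 served as the minimum for calling a gene measured. Below it a fold change is given as "at least", with the lower group set to 6, against the other population and against unbound RNA alike. Adjusted p-values and list medians come from the values as fitted, and a median with levels under 6 set to 6 is given beside a list median that this changes. The arrays' lower limit lay near 2, and 15.8% of the measured genes in the Cort+ group and 17.5% in the stellate and basket group had identical values on their 3 arrays, so an SD of 0.00 reflects the deposited values. Correlations between arrays of a group were 0.988 to 0.998 in Cort+ and 0.995 to 0.996 in stellate and basket. These are bulk measurements of 1 line each, in which fewer cells of a type and less RNA per cell cannot be told apart, and tissue and population cannot be told apart either.

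Of 3 interneuron markers, Pvalb and Lhx6 were called between the populations, on opposite sides, and Gad1 was not. Gad1 was at 14.56, 14.48 and 14.60 on the Cort+ arrays and at 14.84, 14.83 and 14.93 on the stellate and basket arrays. The groups did not overlap, but the difference of -0.32 ± 0.33 (SE) did not pass the test (limma, adjusted p = 0.37). With the mean of all Gad1 probe sets in place of the brightest, the difference was -1.05 and passed (adjusted p = 0.00794), so the call for Gad1 rests on the probe set. In unbound RNA Gad1 had a median of 13.53 in cortex (12.94 to 14.66) and 14.23 in cerebellum (13.90 to 15.24). Pvalb, the calcium buffer parvalbumin, was at 13.08, 12.68 and 13.09 in Cort+ and at 15.22, 15.27 and 15.31 in stellate and basket. It was 4.99-fold higher in stellate and basket (difference -2.32 ± 0.38, adjusted p = 7.9e-08), although unbound cerebellum, at a median of 14.93, was nearly as high as the stellate and basket arrays. Lhx6 was at 9.80, 9.10 and 9.65 in Cort+ and at 2.03 on all 3 stellate and basket arrays, the lower limit. It was at least 11.4-fold higher in Cort+ (adjusted p = 5.9e-56) and lay 1.58 ± 0.15 above unbound cortex.

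The genes that drive the lines checked the labels. Cort, the precursor of the peptide cortistatin, was at 9.17, 8.94 and 9.32 on the Cort+ arrays and at 2.03 on the 3 stellate and basket arrays. In unbound cortex it ranged from 1.87 to 2.98, so that it was measured above the minimum only after purification. Lypd6, a Ly6-family protein that binds nicotinic receptors, was at 13.91, 13.96 and 13.95 in stellate and basket, 3.35 ± 0.29 above unbound cerebellum. On the Cort+ arrays it was at 10.90, 10.49 and 10.97, which was 1.43 ± 0.28 above unbound cortex. Lypd6 was thus enriched in both populations, and the level was 8.91-fold higher in stellate and basket (adjusted p = 7.3e-14).

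**Figure D1:**
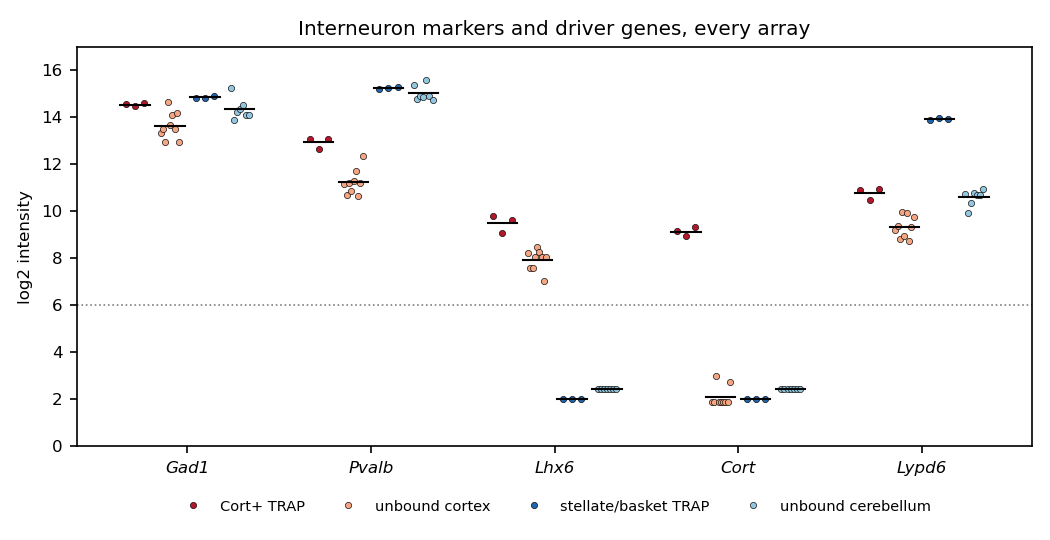
Log2 intensity of Gad1, Pvalb, Lhx6, Cort and Lypd6 on every array of the 4 groups (points; bars are group means; the dotted line is the minimum of 6). Gad1 lies above 14 in both populations, Lhx6 and Cort are at 2.03 in stellate and basket, and Lypd6 lies above unbound RNA in both populations.

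Across the genome the populations differed widely. A gene was tested if its mean reached 6 in a population and exceeded the unbound RNA of the same tissue in at least 1 population, and a call needed a 2-fold difference, an adjusted p below 0.05 and a level above unbound RNA on the higher side. Of 7327 genes tested, 1902 were called higher in Cort+ (26.0%) and 1834 higher in stellate and basket (25.0%), and the median difference over the tested genes was -0.07. Quantile normalization over all arrays, in place of the control probe sets, moved this median to -0.31 and the counts to 1571 and 2383 of 7430, with 1519 and 1781 genes called the same way under both. The genes called higher in Cort+ lay by a median of 0.68 above unbound cortex, and 67.7% of them less than 2-fold above it. For stellate and basket the median was 0.81 and the share 60.4%. With at least 2-fold over unbound RNA required, a rule added after the values were seen, 2108 genes were tested, 616 were higher in Cort+ (29.2%) and 726 higher in stellate and basket (34.4%). Against their own tissue, 1229 of 9553 genes were higher in Cort+ TRAP than in unbound cortex (12.9%), and 944 of 10183 higher in stellate and basket TRAP than in unbound cerebellum (9.27%). The genes lower in TRAP numbered 426 and 3913. These counts follow the scaling: with quantile normalization 930 genes were higher and 673 lower in Cort+ than in unbound cortex, and 2231 higher and 2060 lower in stellate and basket than in unbound cerebellum. The mean levels of Cort+ TRAP and unbound cortex correlated at r = 0.921 over 9553 genes, those of stellate and basket TRAP and unbound cerebellum at 0.811 over 10183 genes, as a description across genes.

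**Figure D2:**
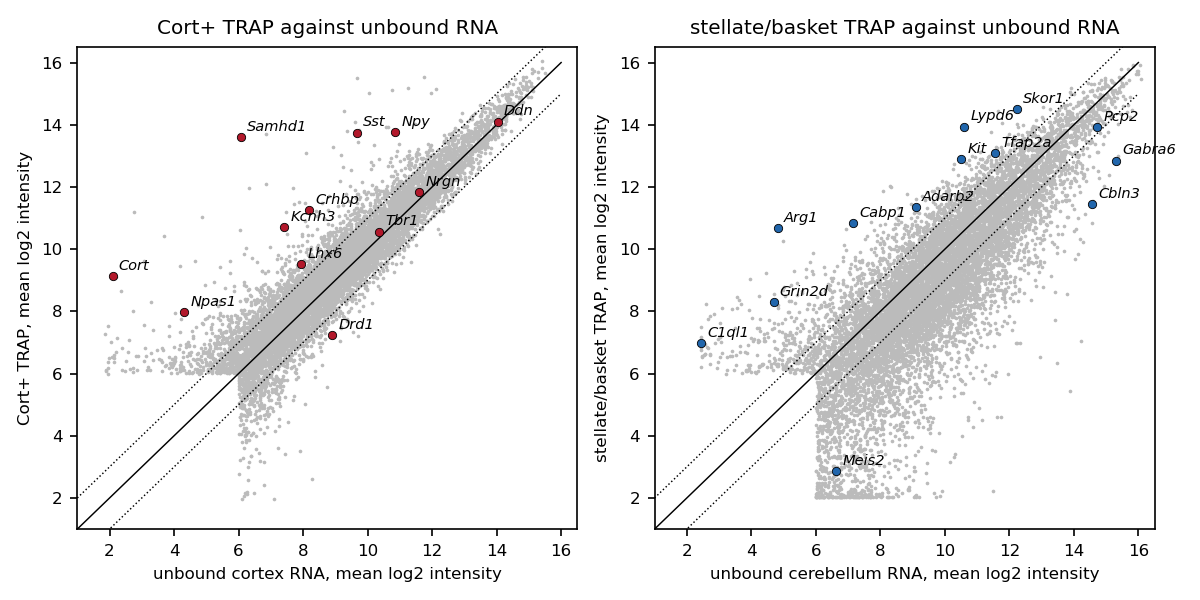
Mean log2 intensity in TRAP RNA (vertical) against unbound RNA of the same tissue (horizontal) for Cort+ (left, 3 against 9 arrays) and stellate and basket (right, 3 against 7 arrays), 1 grey point per gene that reached 6 in either; the solid line is equality and the dotted lines 2-fold. Sst, Npy and Cort lie far above the line at left, while Ddn, Nrgn and Tbr1 lie on it; Kit, Lypd6 and Arg1 lie above it at right and Gabra6 and Cbln3 below it.

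Markers of other cells belong beside every result that follows. The 9 markers of cortical glutamatergic neurons summed to intensities of 12620 to 17920 on the Cort+ arrays, within the 10020 to 17520 of unbound cortex but for the highest array, and to 2995 to 3519 in stellate and basket. Of the 7 that were tested, 6 were called higher in Cort+, among them Nrgn (neurogranin), Tbr1, Fezf2 and the vesicular glutamate transporter Slc17a7, and none was called above unbound cortex. Tbr1, a transcription factor of deep-layer projection neurons, was at 10.57 ± 0.03 (SD, n = 3) in Cort+ and 10.36 in unbound cortex. The stellate and basket arrays held RNA of granule and Purkinje cells below its level in unbound cerebellum: the 7 granule cell markers summed to 10580 to 19940 against 78280 to 120600, and the 8 Purkinje cell markers to 46710 to 61520 against 119600 to 208200. Gabra6, the granule cell GABA receptor subunit, was at 12.85 ± 0.49 in stellate and basket and 15.31 in unbound cerebellum, and Pcp2, a Purkinje cell gene, at 13.92 ± 0.18 and 14.71. For Gabra6 and Pcp2 the level exceeded that of Cort+ by at least 115-fold and 242-fold, and neither was called because it was below unbound RNA. The 14 astrocyte and Bergmann glia markers summed to 29300 to 39590 in Cort+ and 46380 to 47680 in stellate and basket, and the 14 oligodendroglial markers to 56430 to 94570 and 45930 to 60200. The 11 microglial and macrophage markers summed to 2069, 2086 and 5745 in Cort+ and to 340.7 to 367.0 in stellate and basket, and Csf1r and C1qb were called higher in Cort+. C1qb was at 9.33, 11.24 and 9.39 on the Cort+ arrays, all 3 above the 6.33 to 6.54 of stellate and basket, and 8 of the 11 were below the minimum on average in Cort+. The 10 vessel markers summed to 555.3 to 777.6 in Cort+ and 336.9 to 382.4 in stellate and basket. The 9 markers of other cortical interneurons, such as Vip and Lamp5, summed to 15750 to 20870 in Cort+ and 12040 to 26480 in unbound cortex. The 6 markers of cerebellar Golgi and unipolar brush cells summed to 8919 to 10010 in Cort+, 2607 to 6063 in unbound cortex, 1062 to 1670 in stellate and basket and 3493 to 7723 in unbound cerebellum. Of these, Grp, Grm2 and Lgi2 were called higher in Cort+, and Slc6a5, Sln and Eomes were below the minimum in both populations. The 11 pan-neuronal genes summed to 78820 to 96500 in Cort+ and 55680 to 61660 in stellate and basket, against 55960 to 145900 in unbound cortex and 119500 to 168800 in unbound cerebellum. That sum was higher on all 3 Cort+ arrays, and of 5 tested pan-neuronal genes Syt1, Rbfox3 and Tubb3 were called higher in Cort+ and none higher in stellate and basket. The part of these cells in the differences was not tested, and the difference from unbound RNA is given for the genes described in detail.

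Gene lists were read by their tested members. A member that reached the minimum in 1 population only was likely to differ by that selection, though not always by 2-fold (Kcnn1, 5.74 in Cort+ and 6.12 in stellate and basket). A call also needed a level above unbound RNA. The counts therefore describe these arrays and carry no test of their own. They are read against the 26.0% and 25.0% of all tested genes called on each side. Of 614 genes in 31 lists, 564 had a probe set with 1 gene name, and the rest were not analysed here.

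Both populations carried the genes of GABA synthesis and release. Of 8 tested genes for GABA synthesis and transport, 3 were higher in stellate and basket (37.5%) and 1 in Cort+ (12.5%). The median difference was -0.63. Slc32a1, the vesicular GABA transporter, was at 11.71, 11.43 and 11.66 in Cort+ and at 13.15, 13.15 and 13.08 in stellate and basket. Neither group overlapped the other, the level was 2.89-fold higher in stellate and basket (adjusted p = 4.1e-07), and both were enriched, by 1.66 ± 0.22 over unbound cortex and 2.03 ± 0.23 over unbound cerebellum. Gad2 was at 10.12 ± 0.21 in Cort+ and 10.72 ± 0.05 in stellate and basket, a difference below 2-fold (-0.61 ± 0.25, adjusted p = 0.025). Gad2 stood 1.33 ± 0.21 above unbound RNA in stellate and basket and -0.19 ± 0.21 from it in Cort+. Abat, which breaks GABA down, was 2.69-fold higher in stellate and basket, 0.30 ± 0.23 above unbound cerebellum, and below 2-fold with the mean of its probe sets (-0.74). Slc6a13, a GABA and taurine transporter, was at 7.07 ± 0.10 there, at least 2.10-fold above Cort+ (2.80 ± 0.18) and unbound cerebellum (5.13), which were under the minimum. Slc38a2, a glutamine transporter, was 2.32-fold higher in Cort+ and 0.42 ± 0.21 above unbound cortex.

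**Figure D3:**
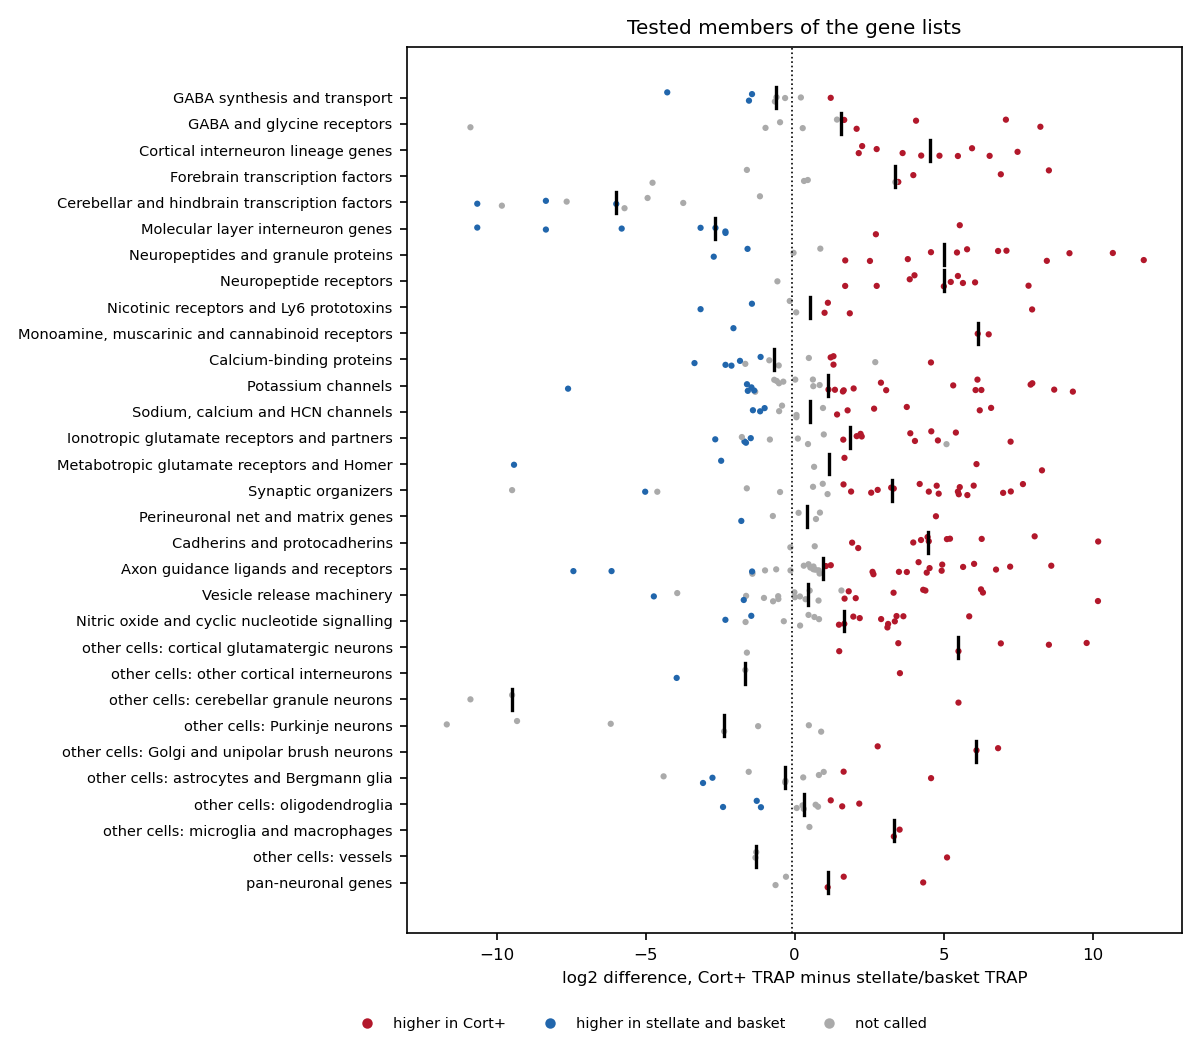
Log2 difference, Cort+ minus stellate and basket TRAP, of each tested member of the 31 gene lists (points, coloured by call); black bars are list medians and the dotted line the median of all tested genes, -0.07. Differences of genes under 6 in 1 population are fitted values, not measured folds. The points of the cortical interneuron lineage list all lie to the right; the neuropeptide and neuropeptide receptor lists have medians near 5, and 2.70 and 1.70 with levels under 6 set to 6.

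The called members of the lineage and transcription factor lists differed along the regions of origin, and some members not called went the other way. Of 17 cortical interneuron lineage genes with a probe set, 6 were below the minimum in both populations, Erbb4, Dlx5 and Prox1 among them, and 1 was below unbound RNA. The remaining 10 were called higher in Cort+ (median 4.55, or 2.18 with levels under 6 set to 6), 7 of them also with 2-fold over unbound RNA required. Beside Lhx6 these were Npas1, Elfn1, Dlx1, Dlx2, Dlx6, Nr2f2, Satb1, Sox6 and Maf. Npas1, a bHLH-PAS repressor, was at 8.09, 7.81 and 8.07 in Cort+ and at the lower limit of 2.03 in stellate and basket, and it was at least 3.97-fold above both stellate and basket and unbound cortex (4.32). Satb1, a chromatin organizer needed by somatostatin interneurons, was at 12.89, 12.88 and 12.88 in Cort+ and at 10.15, 10.22 and 10.02 in stellate and basket, 6.75-fold lower. Satb1 stood 1.21 ± 0.21 above unbound cortex and matched unbound cerebellum (10.14). Maf was 2.15 higher in Cort+, with its highest group mean in unbound cerebellum (12.33). Dlx1, at 8.58 ± 0.45 in Cort+, did not differ from unbound cortex beyond its error (0.36 ± 0.30, adjusted p = 0.34).

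On the cerebellar side, 3 of 9 tested cerebellar and hindbrain transcription factors were called, all higher in stellate and basket: Tfap2a, Tfap2b and Lhx5. That share, 33.3%, was near the 25.0% of all tested genes called on that side. The AP-2 factors Tfap2a and Tfap2b mark the GABAergic lineage of the cerebellum. Tfap2a was at 13.19, 13.03 and 13.03 in stellate and basket and at 2.29, 2.72 and 2.29 in Cort+, at least 136-fold apart (adjusted p = 1.3e-54), and it was 1.52 ± 0.22 above unbound cerebellum. Tfap2b, at 12.23 ± 0.05 in stellate and basket, was at least 74.9-fold higher there and 0.85 ± 0.20 above unbound cerebellum. Lhx5 was at 7.97 on all 3 stellate and basket arrays and at 7.29 in unbound cerebellum. Other members were far higher in stellate and basket but below unbound cerebellum, and so were not called: En2, the engrailed factor of the midbrain and hindbrain, was at 12.01 in stellate and basket, 2.18 in Cort+ and 12.75 in unbound cerebellum, and Zic1 at 14.62, 9.43 and 15.52. Of 9 tested forebrain factors 4 were called higher in Cort+ (44.4%, against 26.0% of all tested genes): Tbr1, Fezf2, Bcl11a and Neurod6. None of the 4 was called above unbound cortex. Tbr1, Fezf2 and Neurod6 were also counted above among the markers of cortical glutamatergic neurons, and the part of those neurons in these calls was not tested. Neurod6, 3.48 higher in Cort+, kept that difference under quantile normalization (3.48) and without the second Cort+ array (3.37, adjusted p = 2.77e-05), but was then not above unbound cortex and so not called. Bcl11b, Lhx2 and Egr3, under the minimum in stellate and basket, were at least 67.1-fold, 9.38-fold and 103-fold higher in Cort+, and Mef2c was 22.8-fold higher, and all 4 were below unbound cortex. Among members not called, Meis2, Otx2 and Neurod2 went the other way. Meis2, of the cerebellar and hindbrain list, was at 12.005 in Cort+, 2.87 in stellate and basket and 12.36 in unbound cortex. The forebrain factors Otx2 (1.97 in Cort+ and 6.74 in stellate and basket) and Neurod2 (8.91 and 10.51) were higher in stellate and basket.

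Of 10 molecular layer interneuron genes with a probe set 9 were tested, and 7 were higher in stellate and basket (77.8%). These were Pvalb, Lypd6, Kit, Sorcs3, Nos1 and the AP-2 genes, and the count includes Lypd6 although it drives the line. Kit, the receptor tyrosine kinase for stem cell factor, was at 12.92, 12.80 and 12.95 in stellate and basket and at 7.08 on all 3 Cort+ arrays. That was 55.8-fold (adjusted p = 7.6e-25), and Kit was 2.39 ± 0.32 above unbound cerebellum. Its ligand Kitl, counted among the Purkinje cell markers, was at 11.06 ± 0.14 in Cort+ and 10.17 ± 0.23 in stellate and basket, against 12.37 in unbound cerebellum. The difference of 0.89 was below 2-fold, and was called without stellate and basket array 3 (adjusted p = 0.0316). Sorcs3, a sortilin-family sorting receptor, was 6.30-fold higher in stellate and basket and 3.17 ± 0.18 above unbound cerebellum. Nos1, neuronal nitric oxide synthase, was 5.00-fold higher in stellate and basket. It was enriched in both populations, by 1.33 ± 0.24 over unbound cortex and 1.75 ± 0.25 over unbound cerebellum. Of the list's other tested members, Nxph1 went the opposite way and Ptprk had no clear direction. Nxph1, a secreted ligand of neurexins, was at 11.93, 11.40 and 11.99 in Cort+ and at 6.23 on all 3 stellate and basket arrays, 46.6-fold higher in Cort+, and below unbound cerebellum (8.27) in stellate and basket. Ptprk, a receptor phosphatase, was higher in Cort+ by 2.73 ± 1.14 on the probe set used, but on 5 other probe sets that reached the minimum the difference was -1.27 to -4.68, so that no direction can be given for the gene. Its call was also lost when any 1 of the 6 arrays was left out (adjusted p = 0.05 to 0.0525).

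Neuropeptide genes were mostly higher in Cort+. Of 16 tested neuropeptide and granule genes, 12 were higher in Cort+ (75%) and 2 in stellate and basket (12.5%), with a median of 5.01, or 2.70 with levels under 6 set to 6. The 12 include Cort, although it drives the line, and 8 of the 12 were below the minimum in stellate and basket. Sst, the somatostatin precursor, was at 13.71, 13.61 and 13.93 in Cort+ and at 2.03 on the 3 stellate and basket arrays, at least 215-fold apart (adjusted p = 4.4e-39). In unbound cortex Sst ranged from 7.72 to 10.54 around a median of 9.89, so the Cort+ arrays lay 4.09 ± 0.38 above it without overlap. Npy, neuropeptide Y, was at 13.78, 13.65 and 13.87 in Cort+, 2.90 ± 0.32 above unbound cortex, and at 8.28, 8.40 and 8.28 in stellate and basket, 43.7-fold lower. Crhbp, which binds and sequesters corticotropin-releasing hormone, was at 11.63, 10.59 and 11.55 in Cort+ and at the lower limit in stellate and basket, and it was 3.06 ± 0.24 above unbound cortex. Its SD was 0.58 on the Cort+ arrays and 0.59 in unbound cortex, wider than the joint spread behind that SE. The hormone's own gene, Crh, was at 12.66, 12.77 and 12.91 in Cort+ and at 2.07, 2.07 and 2.15 in stellate and basket. It stood 1.07 ± 0.48 above unbound cortex, which did not pass (adjusted p = 0.063). Tac1 (substance P precursor) was 55.2-fold higher in Cort+ and 1.25 ± 0.23 above unbound cortex, while Vgf and Grp were higher in Cort+ without being called above unbound cortex. Pdyn and Pnoc, precursors of the dynorphins and of nociceptin, were at 6.61 and 6.47 on all 3 Cort+ arrays, just past the minimum. Vip and Cck, which mark other cortical interneurons, were at 11.86 ± 0.26 and 12.87 ± 0.26 in Cort+ and at 11.97 and 13.02 in unbound cortex, so they were not enriched and were not tested between the populations.

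Of the 2 genes that were higher in stellate and basket, Penk, the enkephalin precursor, was at 13.13, 12.95 and 12.95 there and at 10.13, 10.38 and 10.38 in Cort+. The 6.56-fold difference (adjusted p = 6.6e-12) went with a level 2.16 ± 0.28 above unbound cerebellum, and 0.06 ± 0.27 above unbound cortex. Pcsk1n, which inhibits a prohormone convertase, was 2.99-fold higher in stellate and basket and 1.69 ± 0.35 above unbound cerebellum. Of the granins that fill dense-core vesicles, Scg2 was 5.77-fold and Chgb 3.25-fold higher in Cort+, where they stood 0.95 ± 0.28 and 0.08 ± 0.24 above unbound cortex, and Chga, 0.86 ± 0.33 higher, was below 2-fold. The call of Chgb is lost under quantile normalization, where it falls below unbound RNA in both populations.

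**Figure D4:**
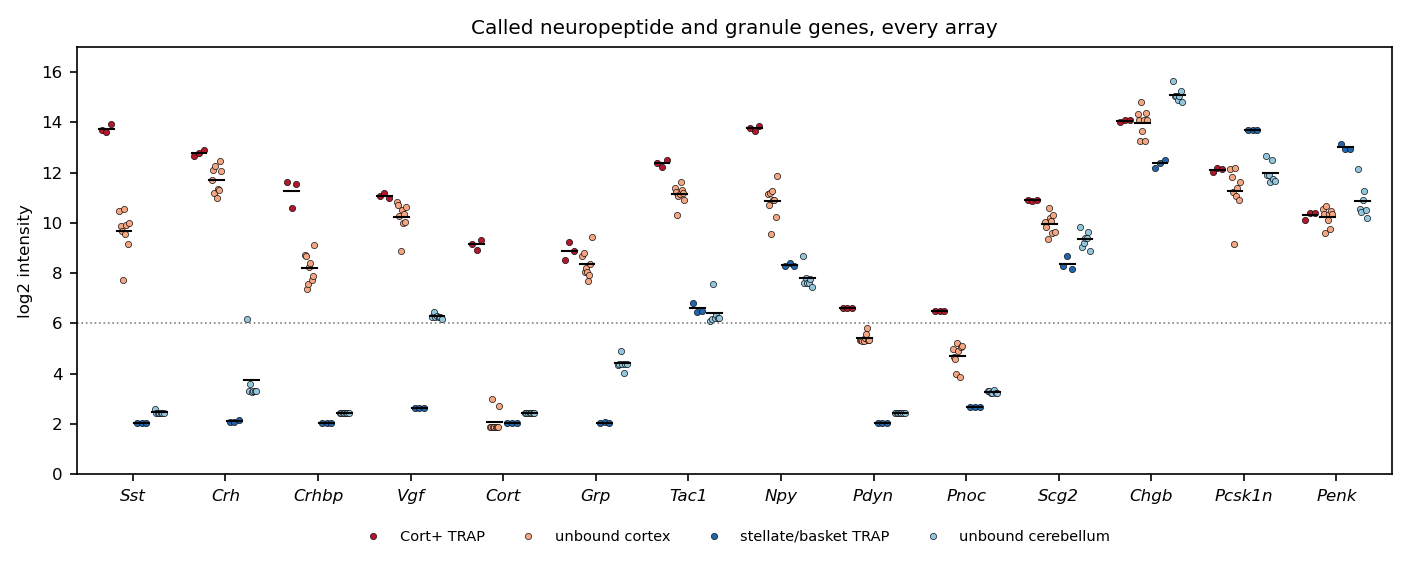
Log2 intensity on every array for the 14 called neuropeptide and granule genes in the 4 groups (points; bars are group means; the dotted line is the minimum of 6). Sst, Npy and Crhbp stand above unbound cortex on all 3 Cort+ arrays, and Penk stands above unbound cerebellum on all 3 stellate and basket arrays.

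Promoters of the neuropeptide list are shown for Sst, Scg2 and Chgb, which were higher in Cort+ and hold the cAMP response element TGACGTCA, and for Cort, which drives the line and holds none in this window. The element, the site of CREB factors, is a palindrome and so reads the same on both strands. In RefSeq windows of 250 bases before to 50 after each start site (build GRCm38.p6), 1.79% of 32851 promoters held it. Among 23 list genes with a promoter entry, 5 held it: Cartpt, Chgb, Pcsk1, Scg2 and Sst. The 250 bases before the start site are printed 5′ to 3′ on the gene's strand, with the element in capitals, for Sst (chr16:23890845-23891094, minus strand, first base of the element at -48 from the start site), Scg2 (chr1:79440027-79440276, minus strand, -68), Chgb (chr2:132781392-132781641, plus strand, -72) and Cort (chr4:149126764-149127013, minus strand).
Sst: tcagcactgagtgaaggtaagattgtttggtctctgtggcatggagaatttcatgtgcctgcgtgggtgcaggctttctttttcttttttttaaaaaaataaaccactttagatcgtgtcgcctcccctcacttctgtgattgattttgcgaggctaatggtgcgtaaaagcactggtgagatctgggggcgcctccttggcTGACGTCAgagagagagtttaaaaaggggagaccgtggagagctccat
Scg2: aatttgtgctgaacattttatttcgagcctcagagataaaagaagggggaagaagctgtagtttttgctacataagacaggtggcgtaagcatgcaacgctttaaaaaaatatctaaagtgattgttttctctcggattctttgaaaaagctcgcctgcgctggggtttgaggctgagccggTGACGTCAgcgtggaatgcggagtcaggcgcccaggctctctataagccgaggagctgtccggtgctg
Chgb: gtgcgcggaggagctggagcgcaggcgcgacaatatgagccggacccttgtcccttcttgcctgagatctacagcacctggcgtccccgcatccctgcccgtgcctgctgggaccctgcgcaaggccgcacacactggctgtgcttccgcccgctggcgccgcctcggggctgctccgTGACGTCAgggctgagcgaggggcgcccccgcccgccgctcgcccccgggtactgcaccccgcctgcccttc
Cort: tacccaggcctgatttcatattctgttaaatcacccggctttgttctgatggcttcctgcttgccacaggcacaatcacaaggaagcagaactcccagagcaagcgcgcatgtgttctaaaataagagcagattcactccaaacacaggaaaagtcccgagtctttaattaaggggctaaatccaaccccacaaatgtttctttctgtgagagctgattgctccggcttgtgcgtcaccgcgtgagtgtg
These letters describe the windows only, and no measurement here bears on binding at them.

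Receptors for neuropeptides followed the same side. Of 11 tested, 10 were higher in Cort+ (90.9%) and none in stellate and basket (median 5.01, or 1.70 with levels under 6 set to 6). Only Oxtr (oxytocin receptor) and Oprm1 were called above unbound cortex. Oxtr was at 7.92, 7.68 and 7.85 in Cort+ and 2.16 on the stellate and basket arrays, with unbound cortex between 6.12 and 6.92. Oprm1, the mu opioid receptor, was just past the minimum, at 6.12, on 1 of its 4 probe sets and at the lower limit on the other 3. Cckbr, Npy5r, Npy2r, Tacr3, Sstr2 and Sstr3 were less than 2-fold above unbound cortex, and 8 of the 10 called receptors were below the minimum in stellate and basket. Adcyap1r1, the receptor for the peptide PACAP, was 6.75-fold higher in Cort+, at 10.17, 10.36 and 10.25 in Cort+ against 7.50 in stellate and basket, which was under the 10.17 of unbound cerebellum. Of the monoamine, muscarinic and cannabinoid receptors only 3 were tested. Chrm1 and Htr2c were higher in Cort+, each within 2-fold of unbound cortex, and Cnr1, the presynaptic cannabinoid receptor, was 4.15-fold higher in stellate and basket (13.54 in unbound cerebellum). Drd1 and Htr1b were lower in Cort+ TRAP than in unbound cortex, at 7.23 against 8.91 and 7.24 against 8.57.

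The Ly6 family, to which the Lypd6 driver belongs, had a pair of close relatives on opposite sides. Lypd6b, the paralog of Lypd6, was at 10.41, 9.89 and 10.64 in Cort+ and at 2.34 on all 3 stellate and basket arrays. It was at least 19.9-fold higher in Cort+ (adjusted p = 6.9e-36) and 1.56 ± 0.29 above unbound cortex. Ly6e was 2.70-fold higher in stellate and basket (2.13 ± 0.44 above unbound cerebellum) and Ly6h 2.17-fold higher in Cort+ (0.37 ± 0.38 above unbound cortex), with Ly6h losing its call without the second Cort+ array (0.98 higher) or any 1 stellate and basket array (1.12 higher, adjusted p = 0.0533 to 0.0534). The nicotinic subunit Chrna7 (alpha 7) was higher in Cort+ by 1.01 ± 0.24 and above unbound cortex by 1.48 ± 0.20. Chrna7 was just under 2-fold without Cort+ array 1 or 3 or stellate and basket array 2 or 3 (lowest 0.94) and with the mean of its probe sets (0.62). Chrna4 (alpha 4) was at 6.83 in Cort+ and below the minimum in stellate and basket (4.98) and unbound cortex (4.95). It was called, but the levels show only that it was at least 1.78-fold higher in Cort+ than in either.

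Of 14 tested calcium-binding proteins, 4 were higher in Cort+ (28.6%) and 5 higher in stellate and basket (35.7%), shares near the 26.0% and 25.0% of all tested genes. Under quantile normalization the counts were 1 and 5 of 11. Beside Pvalb, stellate and basket was higher for Cabp1, Kcnip3, Kcnip4 and Ncs1, the last 2 standing 0.08 ± 0.30 and 1.02 ± 0.24 above unbound cerebellum. Cabp1, a calmodulin-like regulator of calcium channels, was at 10.89, 10.88 and 10.77 in stellate and basket and at 7.43, 7.60 and 7.43 in Cort+. The groups were 10.3-fold apart, and stellate and basket stood 3.70 ± 0.32 above unbound cerebellum. Kcnip3 (calsenilin) was enriched in both populations and 3.56-fold higher in stellate and basket, whereas its relative Kcnip1, another partner of Kv4 channels, was 2.47-fold higher in Cort+ and was the only one of the 4 genes called higher there that was also called above unbound cortex (1.29 ± 0.32). Ncald, Necab2 and Vsnl1 were within 2-fold of unbound cortex. Under quantile normalization Ncald and Vsnl1 were above unbound RNA in neither population and so not tested, and Necab2 kept its difference (1.14, adjusted p = 0.000602) but was not above unbound cortex. Calb1 and Calb2 (calbindin, calretinin) were not called, and in stellate and basket both were below unbound cerebellum, at 12.98 against 15.36 and 10.00 against 13.03. Hapln4, a link protein of perineuronal nets, was 3.45-fold higher in stellate and basket and 0.30 ± 0.21 above unbound cerebellum, the 1 gene of 6 tested net and matrix genes called on that side.

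GABA and glycine receptor genes were called in 5 of 10 tested cases, all higher in Cort+ (50%), and in 4 and 1 of 9 under quantile normalization. Gabra6, tested but not called, was far higher in stellate and basket (12.85 against 1.97 in Cort+), where it was below unbound cerebellum. Gabra5 was at 10.24, 10.30 and 10.30 in Cort+ and at the lower limit of 2.03 in stellate and basket, and stood 0.75 ± 0.24 above unbound cortex. Glra3, a glycine receptor subunit, was at 9.12 ± 0.33 against the same limit. Gabra2, Gabrg1 and Gabrd completed the set, and none of the 5 was called above unbound cortex. For Gabrd, a subunit of extrasynaptic receptors, stellate and basket stood 4.03 below unbound cerebellum (7.37 ± 0.38 against 11.40). Gphn, the scaffold gephyrin, was at 8.38 in Cort+ and 10.02 in stellate and basket and was below unbound RNA in both, so it was not tested. With quantile normalization it was called higher in stellate and basket. Gabrb2 (12.31 and 12.04) and Glrb (12.90 and 13.88) were not called, and Glrb passed 2-fold without Cort+ array 1 or 3 or stellate and basket array 2 or 3 (farthest from 0 at -1.02).

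Of 29 tested potassium channel genes, 15 were higher in Cort+ (51.7%) and 5 higher in stellate and basket (17.2%), with a median of 1.14, or 0.91 with levels under 6 set to 6. The Kv3 channels, which let neurons fire fast, were divided by subunit. Kcnc2 (Kv3.2) was at 11.52, 11.06 and 11.53 in Cort+ and at 2.03 in stellate and basket, while unbound cortex spanned 10.09 to 11.61. Kcnc1 (Kv3.1) was at 12.97, 12.98 and 12.97 in Cort+ and at 10.59, 11.13 and 11.25 in stellate and basket, 3.95-fold apart. It was 1.04 ± 0.26 above unbound cortex and 3.13 below unbound cerebellum. Kcnc4 (Kv3.4) was 2.73-fold higher in stellate and basket and 1.14 ± 0.26 above unbound cerebellum. Kcng4, a modulatory subunit (Kv6.4), was at 9.80, 9.76 and 10.28 in stellate and basket and at 2.35 on all Cort+ arrays, at least 15.4-fold apart, and was 1.13 ± 0.24 above unbound cerebellum. Kcnab3, a beta subunit of Kv1 channels, was 3.03-fold higher in stellate and basket and enriched in both populations, at least 2.48-fold in Cort+ (unbound cortex 5.83) and by 2.22 ± 0.21 in stellate and basket. The Kv1 subunit Kcna2 was 2.56-fold higher in stellate and basket, 0.11 ± 0.22 above unbound cerebellum, and below 2-fold with the mean of its probe sets (-0.95). Kcna1 (2.50-fold) was not called, because at 13.12 it was just below unbound cerebellum (13.21), and it was called under quantile normalization. Of the 15 channels higher in Cort+, Kcnh3 and Kcnc1 alone were also at least 2-fold above unbound cortex. Kcnh3, an ether-a-go-go-like channel, was at 10.73, 10.63 and 10.73, and unbound cortex reached from 3.83 to 10.61. Kcnq5, Kcnt2, Kcna4, Kcnv1 and Kcna5 were at the lower limit in stellate and basket and less than 2-fold above unbound cortex in Cort+.

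Calcium and sodium channels were called in 9 of 14 tested cases, 6 of them higher in Cort+ (42.9%). Cacna1e, the R-type calcium channel, was at 11.02, 12.10 and 11.29 in Cort+ and at 5.26 in stellate and basket. The N-type channel Cacna1b was at 10.39, 11.86 and 10.88 in Cort+ and at 7.26, 7.44 and 7.14 in stellate and basket. Both were above unbound cortex, by 1.40 ± 0.23 and 1.42 ± 0.24, and the second Cort+ array was the highest for both. Cacnb1, Cacnb4, Cacna1c and the sodium channel beta subunit Scn2b were the others. Hcn3, Cacna2d3 and Cacnb2 were higher in stellate and basket, by 2.01-fold, 2.23-fold and 2.64-fold, and 1.41 ± 0.17, 1.62 ± 0.19 and 0.82 ± 0.25 above unbound cerebellum, and Hcn3 was below 2-fold without the second Cort+ array (-0.94).

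**Figure D5:**
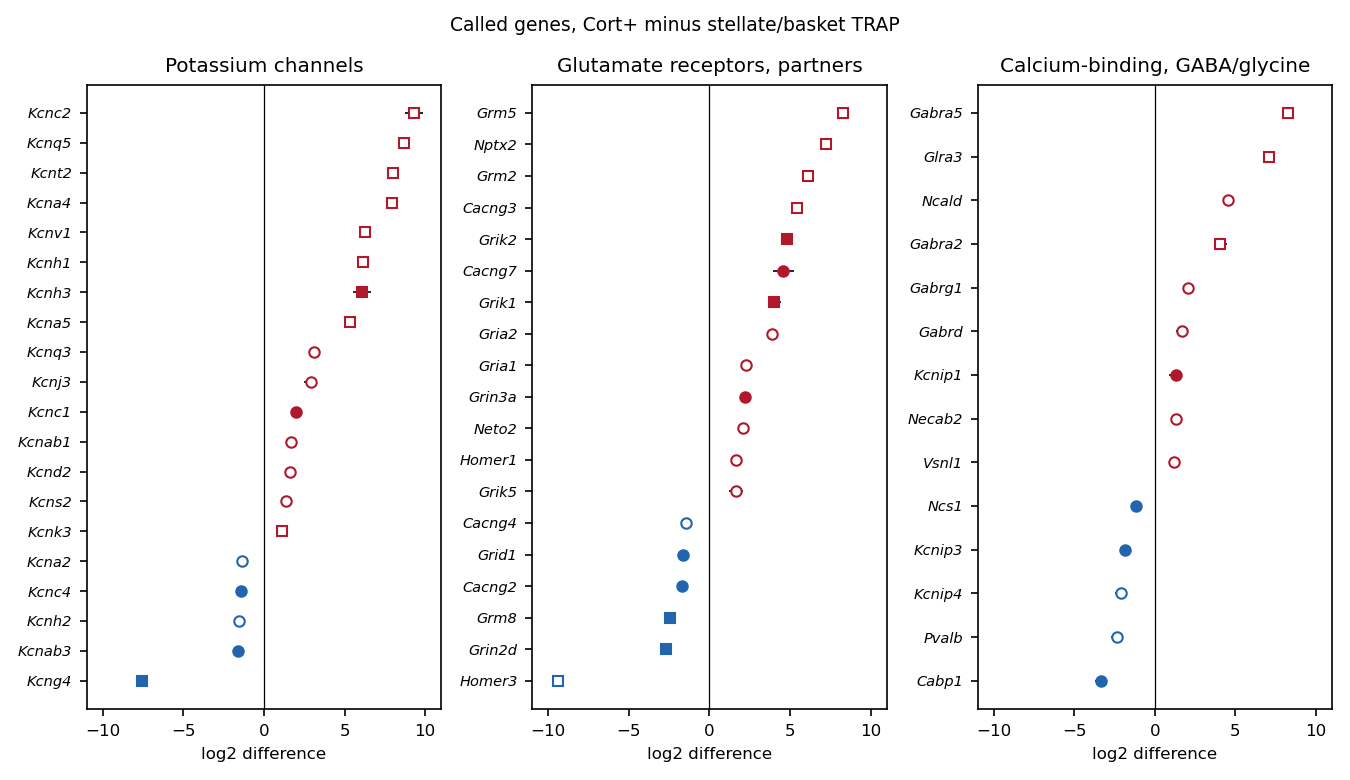
Log2 difference, Cort+ minus stellate and basket TRAP, with its SE from limma, of the called potassium channel genes (left), glutamate receptor genes (middle) and calcium-binding and GABA or glycine receptor genes (right); filled points also passed with 2-fold over unbound RNA required, and squares are genes under 6 in 1 population, whose differences are fitted values and not measured folds. Kcnc2 and Kcng4 are squares at 9.34 and -7.60, and Grin2d, Grm8 and Cabp1 are filled on the stellate and basket side.

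Glutamate receptors differed by subtype. Of 20 tested ionotropic receptor and partner genes, 10 were higher in Cort+ (50%) and 4 in stellate and basket (20%), with a median of 1.86, or 1.54 with levels under 6 set to 6. The kainate receptor subunits Grik1 and Grik2 were at 9.26 ± 0.33 and 9.43 ± 0.00 in Cort+ and at 5.23 and 4.62, below the minimum, in stellate and basket. Both were above unbound cortex, by 1.54 ± 0.31 and 1.21 ± 0.24. Grin3a, an NMDA receptor subunit, was at 9.41, 9.09 and 9.43 in Cort+ and at 7.10 in stellate and basket, and was 1.77 ± 0.18 above unbound cortex. With the mean of its probe sets the difference was 0.77, below 2-fold. Grin2d, another NMDA subunit, ran the other way. It was at 8.30 on all 3 stellate and basket arrays and at 5.75, 5.51 and 5.64 in Cort+, at least 4.91-fold above both Cort+ and unbound cerebellum (4.69). Its second probe set was at the lower limit in both populations. Gria2, the AMPA receptor subunit that limits calcium entry, was at 12.94, 12.95 and 12.95 in Cort+ and at 9.28, 9.09 and 8.82 in stellate and basket, 14.7-fold lower. In stellate and basket it was also 1.92 below unbound cerebellum, while in Cort+ its difference from unbound cortex did not pass (0.43 ± 0.25, adjusted p = 0.16). Gria4 was at 9.72 in Cort+ and 11.49 in stellate and basket, just under unbound cerebellum (11.52), and was called under quantile normalization and with the mean of its probe sets (-2.57). Grid1, the delta 1 receptor, and Cacng2 (stargazin) were 3.10-fold and 3.21-fold higher in stellate and basket, and 2.79 ± 0.22 and 1.21 ± 0.26 above unbound cerebellum. Grid1 was below 2-fold with the mean of its probe sets (-0.94). Cacng7 was higher in Cort+ on 1 of its 2 probe sets, with the other near the lower limit in both populations.

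Among the metabotropic receptors, Grm5 and Grm2 were higher in Cort+, where Grm5 (10.46 ± 0.06) was within its error of unbound cortex. Grm8, a presynaptic group III receptor, was higher in stellate and basket, at 7.86, 7.74 and 7.74 against 5.32, at least 3.44-fold above both Cort+ and unbound cerebellum (4.02). The Homer scaffolds that tie these receptors to the postsynaptic density were split. Homer3 was at 11.23, 11.41 and 11.53 in stellate and basket and at the lower limit of 1.97 in Cort+, at least 41.9-fold apart. It stood 0.19 ± 0.11 above unbound cerebellum (11.20), which did not pass (adjusted p = 0.11). Purkinje cells express Homer3, and their part in its level on these arrays was not tested. Homer1 was 3.19-fold higher in Cort+ and 0.06 ± 0.21 above unbound cortex. Under quantile normalization its difference was 1.86 (adjusted p = 1.3e-10), but it was not above unbound cortex and so not called.

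Synaptic organizers were mostly higher in Cort+, 18 of 26 tested (69.2%) against 1 (median 3.28, or 1.77 with levels under 6 set to 6; 15 and 2 of 24 under quantile normalization), and 9 of the 18 passed with 2-fold over unbound RNA required. Lrrtm1, a postsynaptic neurexin partner, was at 12.01, 12.26 and 12.01 in Cort+ and at 4.46, 4.42 and 4.42 in stellate and basket, and 1.19 ± 0.23 above unbound cortex. Lrrtm3 was 10.0-fold higher in Cort+ and 1.52 ± 0.22 above unbound cortex. The neurexophilins Nxph1, Nxph2 and Nxph3, Elfn1, Slitrk3, Lgi2, Cntnap4 and the Lrrtm pair made up the 9. C1ql1, a secreted complement-family ligand, was the 1 gene on the other side: it was at 7.21, 6.87 and 6.87 in stellate and basket and at or near the lower limit in Cort+, unbound cortex and unbound cerebellum. Cadherins and protocadherins were called in 11 of 13 tested cases, all higher in Cort+ (84.6%). Cdh9, Cdh13 and Pcdh18 passed with 2-fold over unbound RNA required, and Cdh9, a classical cadherin, was at 10.41, 9.60 and 10.27 in Cort+ and 2.04 in stellate and basket.

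Guidance genes were higher in Cort+ in 16 of 32 tested cases (50%) and higher in stellate and basket in 3 (9.38%), and in 12 and 6 of 32 under quantile normalization. Slit2, a secreted repellent, was at 10.55, 10.70 and 10.70 in Cort+ and at the lower limit in stellate and basket, with its receptor Robo1 on the same side (8.26 against 2.61). Slit2 and Robo1 stood 0.85 ± 0.16 and 0.20 ± 0.22 above unbound cortex. Ntn1, the secreted cue netrin 1, was at 9.86, 9.04 and 9.28 in stellate and basket and at 1.97 in Cort+, at least 10.5-fold apart, and was 2.33 ± 0.16 above unbound cerebellum. Epha8 (8.57 against 2.42) and the semaphorin receptor Plxnc1 (2.69-fold) were the other 2, at 0.77 ± 0.15 and 2.04 ± 0.23 above unbound cerebellum. Ephb6, Ntng2 and Efna3 were higher in Cort+ and at least 2-fold above unbound cortex, and the difference of Efna3, 1.05, fell just under 2-fold under quantile normalization and without the second Cort+ array (lowest 0.92).

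Of 24 tested vesicle release genes, 9 were higher in Cort+ (37.5%), 2 higher in stellate and basket (8.33%) and 13 not called, and under quantile normalization the counts were 7 and 5 of 21. Among those not called were Rab3c (12.68 and 12.50), Sv2a (12.02 and 11.65), Vamp2 (12.76 and 13.30) and Cplx1 (14.34 and 14.89). Cplx1 was called higher in stellate and basket with the mean of its probe sets (-1.81). Rab3b, a vesicle GTPase, was at 11.20, 10.68 and 11.35 in Cort+ and at 6.69 in stellate and basket, 21.0-fold higher and 2.61 ± 0.16 above unbound cortex. Synaptotagmins, the calcium sensors of release, were divided. Syt5 was higher in Cort+ (8.33 against 2.07) and 1.03 ± 0.20 above unbound cortex, and Syt9 was at 11.83, 11.91 and 11.79 in stellate and basket and at 6.96, 7.44 and 6.96 in Cort+, 26.4-fold apart. Syt9 stood 0.29 ± 0.24 above unbound cerebellum in stellate and basket, and was 0.98 below unbound cortex in Cort+. Syt2, a fast sensor, was at 7.82 and 11.75 but was level with unbound cerebellum (11.87), and it was called under quantile normalization alone. Stx1a, a t-SNARE, was at 13.67, 14.07 and 13.91 in Cort+ and at 3.71 in stellate and basket, with unbound cortex at 13.65, and its other probe set was at 10.67 in Cort+ and 2.06 in stellate and basket.

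Nitric oxide made by Nos1 acts on guanylyl cyclase. Of 19 tested nitric oxide and cyclic nucleotide genes, 11 were higher in Cort+ (57.9%) and 2, Nos1 and the adenylyl cyclase Adcy8, in stellate and basket. The guanylyl cyclase subunits Gucy1a1, Gucy1a2 and Gucy1b1 were higher in Cort+ by 3.42 ± 0.22, 1.97 and 1.67, and Gucy1a2 was below 2-fold with the mean of its probe sets (0.95). Gucy1b1 was level with unbound cortex (11.49 and 11.45), and its difference held under quantile normalization (1.78), without the second Cort+ array (1.59, adjusted p = 0.000351) and with the mean of its probe sets (1.18), but there it was not above unbound cortex and so not called. The cGMP-dependent kinase Prkg1 was 7.48-fold higher in Cort+, and in stellate and basket it was 3.13 below unbound cerebellum. None of the 11 was at least 2-fold above unbound cortex.

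The 12 genes with the largest called differences on each side included several outside the lists. They were picked among called genes whose arrays did not overlap between the populations. That held for 1899 of the 1902 genes called higher in Cort+ and 1833 of the 1834 called higher in stellate and basket. In Cort+ these were Ddn, Sst, Crh, Samhd1, Pcdh8, Stx1a, Nrgn, Egr2, Krt12, Kcnc2, Crhbp and Kalrn. Ddn (dendrin), at least 274-fold higher in Cort+, was at 14.10 ± 0.26 there and at 14.03 in unbound cortex. Under quantile normalization its difference was as large (11.76), but it was not above unbound cortex and so not called, and Egr2 and Krt12 were above unbound RNA in neither population and not tested. Nrgn, Egr2, Krt12, Stx1a, Kalrn, Pcdh8 and Kcnc2 were likewise within 2-fold of unbound cortex, and Sst, Crh, Samhd1 and Crhbp were the 4 that passed with 2-fold over unbound RNA required. Samhd1, a hydrolase of deoxynucleotides, was at 13.69, 13.57 and 13.57 in Cort+ and 3.13 in stellate and basket on the probe set used, and at 13.57 and 4.33 on another, while on a further one it was at 5.07 and 6.10, so its probe sets disagree. In stellate and basket the 12 were Skor1, Tfap2a, Homer3, Lhx1os, Prkcd, Arg1, Aqp6, Tfap2b, Gm36529, Asgr1, Smpx and Scd3. Of these, Homer3, Lhx1os, Aqp6, Smpx and Tfap2b were within 2-fold of unbound cerebellum, 0.19 to 0.85 above it. The others passed with 2-fold over unbound RNA required. Skor1, a Ski-family corepressor, was at 14.46, 14.60 and 14.48 and at the lower limit in Cort+, at least 366-fold apart, and 2.28 ± 0.37 above unbound cerebellum. Prkcd, protein kinase C delta, was at 11.23, 11.26 and 11.46 and 2.78 ± 0.60 above unbound cerebellum. For both, a second probe set was at or near the lower limit in both populations. Arg1 (arginase 1) was at 11.05, 10.66 and 10.34 and Asgr1, a lectin receptor subunit best known from liver, at 10.26, 10.21 and 10.34. Both were near the lower limit in Cort+ and below the minimum in unbound cerebellum on average, at 4.82 and 4.99.

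Whether a gene was more enriched in one population than in the other was tested as the difference between the TRAP over unbound ratios of cortex and cerebellum. That test depends on the scaling, since its median over all tested genes was 0.79 with the control probe sets and -0.32 with quantile normalization, so only genes called the same way under both are counted. Of 6674 genes tested under both, 1592 had the larger ratio in Cort+ (23.9%) and 903 in stellate and basket (13.5%). Alone, the control probe sets gave 3255 and 909 genes, and quantile normalization 1593 and 2368. Which population had more such genes thus depends on the scaling, and the shared counts do not settle it. Where TRAP and unbound RNA of a tissue were both under 6, the ratio of that tissue holds only the gap between the arrays' lower limits (2.03 in stellate and basket, 2.43 in unbound cerebellum), so the genes at 6 or above in TRAP or unbound RNA of each tissue are given apart. Of these 5865 genes, 1435 had the larger ratio in Cort+ (24.5%) and 629 in stellate and basket (10.7%). Pvalb was among the former, with a ratio difference of 1.47 ± 0.44, and Lypd6, which drives the stellate and basket line, among the latter (-1.91). Cort and Lhx6 were under 6 in both cerebellar groups and have no measured ratio there. Among measured neuropeptide genes 4 of 8 had the larger ratio in Cort+ and 1, Penk, in stellate and basket. For synaptic organizers the counts were 11 and 0 of 15, for calcium-binding proteins 3 and 4 of 11, and for Ly6 and nicotinic genes, the driver Lypd6 included, 0 and 4 of 6. Pvalb was therefore higher in level in stellate and basket and more enriched in Cort+. Gad1 was not called in this test under either scaling (0.38 and -0.02).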

How the data were processed

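TRAP and unbound RNA was hybridised to Affymetrix mouse expression arrays after 2-cycle amplification, per the labels' protocols. The authors deposited linear intensity values normalized with GCRMA, per the submitters' processing notes (version not given), separately within each of the 30 groups of replicates, per the series' design text. Here values under 1 were set to 1, taken to log2, and each group was shifted to give 18 biotinylated control probe sets the same mean, since groups normalized apart are not on 1 scale. Of 45101 probe sets, 34958 had 1 gene symbol in the platform annotation, 932 several and 9211 none, and a gene was read from its brightest probe set over all arrays (18194 genes). One limma 3.58.1 fit over all arrays (R 4.3.3, eBayes with trend) gave each contrast, with Benjamini-Hochberg adjustment over all genes tested, and was tested on simulated data. Calls needed an adjusted p under 0.05, a 2-fold difference, and a mean log2 of 6 (intensity 64) in a group compared. Genes named were the 12 largest called differences per direction and members of 31 lists. The members and lists were chosen with earlier results of these data known. The number of arrays limits the precision. Same-numbered arrays of the populations deviated with correlations of -0.0294, 0.0821 and 0.0530, so the numbers were not taken to pair arrays. Alternatives covered scaling, filters, probe set choice, unbound arrays, a replicate block and each TRAP array left out.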

Additional observations from a re-analysis of the deposited data

Results flagged for a closer look

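The TRAP over unbound ratio of 2 marker or driver genes differed between cortex and cerebellum by the limma test of that difference (3 TRAP arrays in each tissue, 9 and 7 unbound arrays), under both scalings. The difference, cortex minus cerebellum on the log2 scale, was 1.47 for Pvalb (1.18 with quantile normalization) and -1.91 for Lypd6 (-2.62). Lypd6 drives the stellate and basket line, so its ratio is no independent result. Pvalb stood above unbound RNA in cortex and near it in cerebellum, where the unbound level was itself high. Of the genes tested under both scalings that reached the minimum in TRAP or unbound RNA of each tissue, 1435 had the larger ratio in Cort+ and 629 in stellate and basket. The balance of such counts depends on the scaling. Over all tested genes, quantile normalization alone gave the larger count to stellate and basket (1593 and 2368).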

How the results depend on the processing

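With each TRAP array left out in turn, 1745 to 2039 genes were higher in Cort+ and 1800 to 1864 in stellate and basket, 1136 to 1317 higher and 398 to 460 lower in Cort+ than in unbound cortex, and 929 to 962 higher and 3897 to 3923 lower in stellate and basket than in unbound cerebellum. A replicate block in a fit on the 6 TRAP arrays gave 1896 and 1836 genes, of which 1887 and 1832 were called without it. Between the populations, requiring 1.5-fold over unbound RNA left 1075 and 1155 genes, requiring 2-fold (chosen after seeing the data) 616 and 726, and the mean of all probe sets gave 1169 higher in Cort+. Against unbound cortex, the genes higher in Cort+ were 805 with a minimum of 8, 756 with the mean of probe sets and 434 with limma's treat, and those lower were 147 with a minimum of 8, 116 with treat, 1082 with no filter, 655 with no scaling, 673 with quantile normalization, 256 with the neuronal lines' unbound arrays alone and 968 with the glial lines' alone. Against unbound cerebellum, 456 were higher with treat, 1651 with no scaling and 2231 with quantile normalization, which gave 2060 lower. Unbound cortex against unbound cerebellum gave 852 higher and 4875 lower, 1342 and 2534 with no scaling, and 1622 and 1930 with quantile normalization. The ratio difference, 3255 and 909, became 2093 and 1808 with no scaling and 1593 and 2368 with quantile normalization. Only genes measured in both tissues (chosen after seeing the data) gave 2922 and 629. Of 62 list counts, 6 moved past 1.5 times with quantile normalization (calcium-binding proteins in Cort+; GABA receptors, synaptic organizers, guidance, vesicle release and vessel genes in stellate and basket) and 31 with 2-fold over unbound RNA required. Ptprk was -2.14 with the mean of its probe sets. The cause of these changes was not tested, apart from the fewer genes tested under stricter requirements.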
